A study of Mus musculus with 2 samples.

Results

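Lipocalin 2, the hepcidins and 7 further genes of iron handling were followed in single barcodes of hepatocyte preparations from undamaged mouse liver and from liver 48 h after partial hepatectomy (PHx). The group held 10 of the 27998 genes listed in the count tables: Lcn2, Hamp, Hamp2, Tfrc, Tfr2, Trf, Hpx, Fth1, Ftl1 and Slc40a1. They were chosen by symbol, with their levels at 0 h and 48 h already known, so the ratios between the libraries are given as a description and no test was run on them. Each gene was read in 3 sets of barcodes that did not overlap: those with over 30% mitochondrial (mt) UMIs, those with under 2%, and those that carried macrophage markers.

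PHx is the surgical removal of a large share of the liver, and it starts regrowth of what is left. Hepatocytes, which carry out most of the metabolism of the organ, were obtained by perfusion with collagenase and profiled on the 10X Genomics droplet system with version 2 chemistry, where a barcode marks the droplet and a unique molecular identifier (UMI) marks the transcript, so that each UMI is counted once. The labels give the strain as C57BL/6 and an age of 10 to 12 weeks at surgery, whereas the methods of the study give male C57BL/6J mice of 9 to 10 weeks, and the difference was not settled. The mice had a normal diet. The undamaged group (0 h) and the PHx48h group were represented by 1 library each, which the study describes as made from a single hepatocyte preparation of 1 mouse. The spread between mice is therefore unknown, and every interval below is a 95% interval for counting error only.

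The liver makes the hormone hepcidin, which removes the iron exporter ferroportin from cell surfaces and so lowers the iron that enters plasma. Hepatocytes also secrete transferrin and hemopexin, the plasma carriers of iron and haem, take up iron through transferrin receptors and store it in ferritin, while liver macrophages return iron from old red cells through ferroportin. Lipocalin 2 binds the siderophores with which bacteria capture iron, and hepcidin, hemopexin and ferritin belong, with lipocalin 2, to the genes that respond to inflammation in liver.

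Iron also acts on some of these transcripts through a short hairpin, the iron-responsive element (IRE), to which iron regulatory proteins bind when iron is scarce. Bound in the 5′ UTR an IRE holds back translation, and bound in the 3′ UTR it protects the transcript from decay. The hairpin was searched for in all annotated UTRs of protein-coding transcripts (GENCODE M21, GRCm38) as the letters CNNNNN, then CAGTGN, then 5 bases that pair with the 5 before CAGTG, G-T pairs allowed, on the strand of the transcript. It was found in the 5′ UTR of 31 of 20597 genes (0.151%) and in the 3′ UTR of 129 of 20979 genes (0.615%). Among the 10 genes it was found in the 5′ UTR of Fth1, Ftl1 and Slc40a1 and at 4 places in the 3′ UTR of Tfrc. The 7 stretches are shown because they tie storage, export and uptake to a shared signal. Capitals mark the unpaired C and the loop, and the bases between and after them form the stem.
Fth1 5′ UTR, chr19:9982732-9982761, plus strand: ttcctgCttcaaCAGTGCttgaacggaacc
Ftl1 5′ UTR, chr7:45459778-45459807, minus strand: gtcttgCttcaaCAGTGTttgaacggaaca
Slc40a1 5′ UTR, chr1:45925464-45925493, minus strand: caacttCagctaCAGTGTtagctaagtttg
Tfrc 3′ UTR, chr16:32631219-32631248, plus strand: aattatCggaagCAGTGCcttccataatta
Tfrc 3′ UTR, chr16:32631598-32631627, plus strand: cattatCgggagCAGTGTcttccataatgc
Tfrc 3′ UTR, chr16:32631663-32631692, plus strand: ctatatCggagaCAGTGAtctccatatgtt
Tfrc 3′ UTR, chr16:32631710-32631739, plus strand: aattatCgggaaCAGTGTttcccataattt
Fth1 and Ftl1 had the same 5 bases on either side of the loop, and their whole transcripts were identical at 67.5% of 855 aligned bases. The counts reported here are of transcripts, and translation was not measured.

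The hepcidin genes lie side by side on chromosome 7, with their lower coordinates 20 kb apart, and their near-identical promoters are shown together. Whether the promoters have a part in the levels of the genes was not tested. Their transcripts were identical at 94.6% of 410 aligned bases, and the 250 bases before their starts at 91.9% of 247 aligned bases. Reads of the pair may be split between them with error, so the values of Hamp2, the less counted gene, are uncertain. Hamp transcription is known to respond to STAT3, downstream of interleukin 6, and to SMAD proteins, downstream of bone morphogenetic proteins (BMPs). The stretch from 150 to 11 bases before each start is given from RefSeq (GRCm38.p6), on the gene's own strand, with capitals on matches to TTCNNNGAA, the letters of a STAT site, and GGCGCC, the core of a BMP-responsive element.
Hamp, chr7:30944040-30944179, minus strand: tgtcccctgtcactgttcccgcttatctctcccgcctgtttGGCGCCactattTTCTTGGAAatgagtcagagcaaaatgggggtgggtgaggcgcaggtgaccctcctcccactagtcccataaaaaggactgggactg
Hamp2, chr7:30924192-30924331, minus strand: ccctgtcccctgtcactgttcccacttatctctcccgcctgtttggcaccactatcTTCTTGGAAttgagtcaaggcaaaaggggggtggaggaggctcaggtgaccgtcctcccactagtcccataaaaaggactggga
Both motifs read the same on either strand and the matches did not overlap. TTCTTGGAA stood 97 to 89 bases before the Hamp start and 94 to 86 bases before that of Hamp2. GGCGCC stood 109 to 104 bases before the Hamp start and was not in the Hamp2 window. Windows of 250 bases were held for 8 of the 10 genes, Trf and Slc40a1 being the others, and of all 32851 such windows given by RefSeq a share of 7.02% held TTCNNNGAA and 9.59% held GGCGCC. The windows of Lcn2, Tfr2, Hpx, Fth1 and Ftl1 held neither, and a window of Tfrc held GGCGCC.

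The libraries differed in size and make-up. The undamaged library held 59202 barcodes with a median of 1436 UMIs and the PHx48h library 1586 with a median of 6838.5, and 148 barcode sequences occurred in both. The set over 30% mt held 3865 and 764 barcodes in that order, the set under 2% mt 52553 and 522, and the macrophage-marker set 264 and 22. The undamaged barcodes under 2% mt made up 88.8% of their library and give the 0 h level of every ratio under 2% mt, and whether each of them holds a whole cell was not tested. After its own filters the study kept far fewer undamaged cells than the barcodes counted here. Median non-mt UMIs per barcode ran from 1213 to 2677 over the undamaged sets and from 4394.5 to 5271.5 over the PHx48h sets. Levels are UMIs per 1000000 non-mt UMIs of a set (CPM), and since counting is from the 3′ end and per UMI they are compared within a gene only. The 10 hepatocyte markers summed to between 65012 and 107174 CPM in the mt sets, where all 10 were detected. The 10 macrophage markers summed to between 17.8 and 38.6 CPM there, and to 13061 and 13526 CPM in the macrophage-marker sets.

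**Figure D1:**
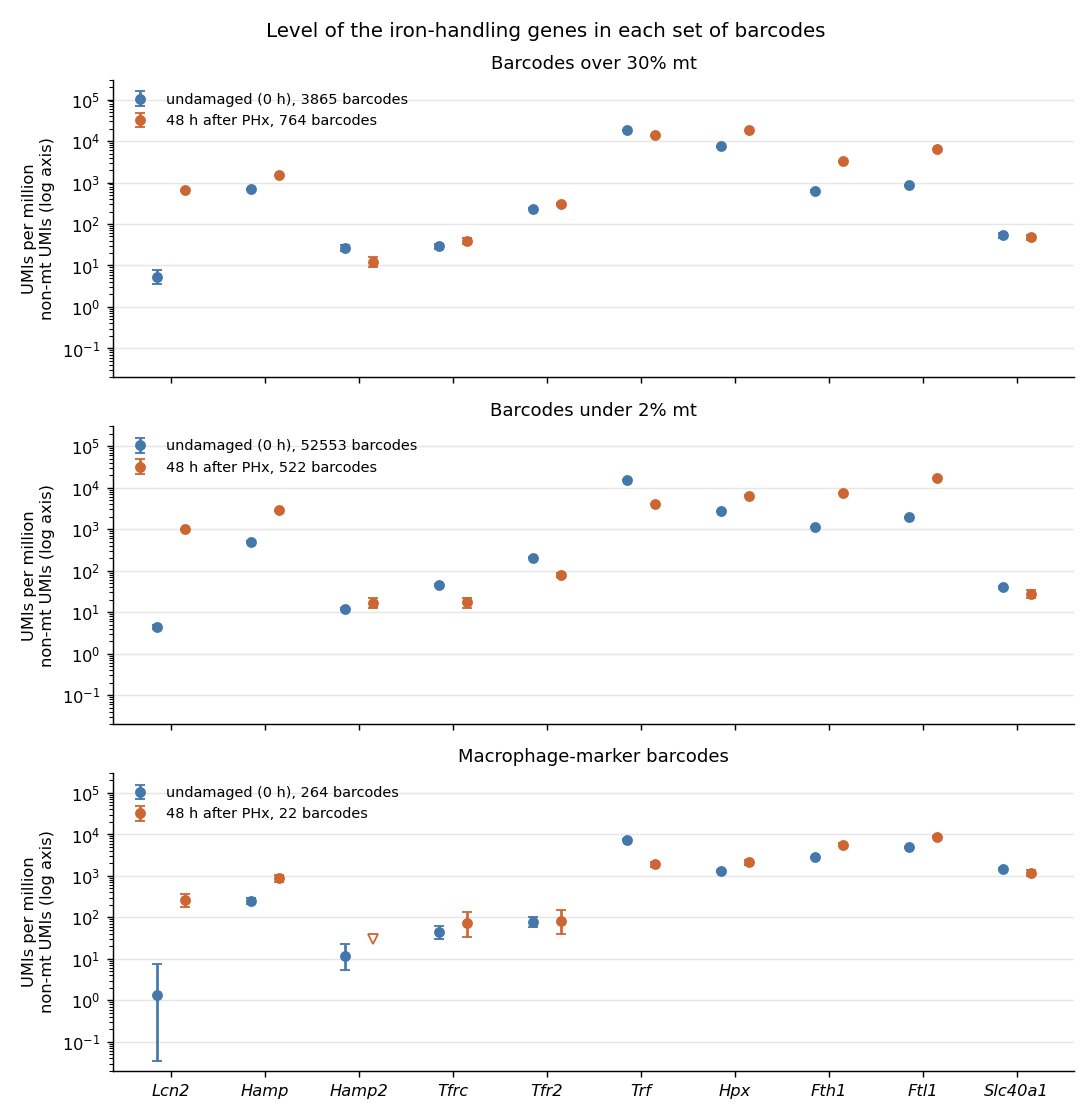
Level of each of the 10 genes in UMIs per 1000000 non-mt UMIs (CPM) (log axis) in the 3 sets of barcodes, blue for the undamaged library and orange for PHx48h; points are summed counts with 95% Poisson intervals, and the open triangle is the upper limit for Hamp2, with no UMI. Lcn2 was at 5.37 and 646 CPM in barcodes over 30% mt, and Slc40a1 was at 1464 and 1171 CPM in the macrophage-marker set and at 52.9 CPM or less in the other sets.

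Lcn2 (ENSMUSG00000026822, chromosome 2, 32384633 to 32388252) encodes lipocalin 2. In barcodes over 30% mt it had 31 UMIs at 0 h, which is 5.37 CPM (3.65 to 7.63), and 3294 UMIs at 48 h, which is 646 CPM (624 to 668). In barcodes under 2% mt the levels were 4.35 CPM (3.90 to 4.83) and 1002 CPM (967 to 1038). Lcn2 was thus low at 0 h and high at 48 h in both sets, with intervals far apart, and its 0 h levels lay above the level of 3 UMIs, 0.520 CPM over 30% mt and 0.0381 CPM under 2% mt. The ratio of 48 h to 0 h was 120 (84.5 to 177) in the first set and 230 (206 to 258) in the second. In macrophage-marker barcodes Lcn2 had 1 UMI at 0 h and 32 at 48 h, a ratio of 194 (32.5 to 7910) that rests on that single UMI. By log2 ratio it ranked 2nd of 6715 genes in the set over 30% mt, 1st of 5715 under 2% mt and 3rd of 8611 in the macrophage-marker set. The genes ranked had a mean of at least 10 CPM, which Lcn2 reached through its 48 h level alone. It was chosen with these levels known, so the ranks describe it and are not evidence of their own.

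Depth was equalized by thinning each barcode to 500 non-mt UMIs, which left out 75 undamaged barcodes over 30% mt and none elsewhere. Lcn2 then had a UMI in 0.264% (0.127% to 0.485%) of undamaged and 26.3% (23.2% to 29.6%) of PHx48h barcodes over 30% mt. Under 2% mt the shares were 0.223% (0.184% to 0.267%) and 40.2% (36.0% to 44.6%). Without thinning, 683 of the 764 PHx48h barcodes over 30% mt (89.4%) and 519 of 522 under 2% mt (99.4%) held an Lcn2 UMI, against 0.673% and 0.634% at 0 h. The gene was thus counted in most PHx48h barcodes of both mt sets rather than in a small group of them. In macrophage-marker barcodes it had a UMI in 1 of 264 at 0 h and 15 of 22 at 48 h, or in 2 of 22 at 48 h after thinning (9.09%, 1.12% to 29.2%). Neutrophils also make lipocalin 2, and of the 10 neutrophil markers 9 had no UMI in the PHx48h barcodes over 30% mt, the remaining S100a9 having 1, and all 10 had none under 2% mt. At 0 h the neutrophil markers summed to 0.347 CPM over 30% mt and 5.39 CPM under 2% mt, and in macrophage-marker barcodes to 13.4 CPM at 0 h and 32.5 CPM, from 4 UMIs, at 48 h.

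At the few Lcn2 UMIs per barcode, its variation between PHx48h barcodes was modestly above counting error. Its dispersion, the variance between barcodes over that given by counting alone, was 1.5 over 30% mt and 1.42 under 2% mt. This measure is larger for genes with more UMIs, and Lcn2 had means of 4.31 and 6.02 UMIs per barcode, against 94.6 and 24.6 for Trf. The values therefore do not show that Lcn2 was more even than other genes. In the set over 30% mt the median barcode had 5.63 Lcn2 UMIs per 10000 non-mt UMIs, the 90th percentile 12.8 and the highest 43.3. The 5 genes with the highest Spearman rho with Lcn2 over these 764 barcodes, of 1335 genes at 100 CPM or more, were Mup3 (0.22), Serpina1c (0.19), Rbp4 (0.18), Serpina1b (0.16) and Mup20 (0.16). All encode secreted proteins of hepatocytes. The coefficients are low and the barcodes share a library and differ in depth, so the list is a description.

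Hamp (ENSMUSG00000050440, chromosome 7, 30942368 to 30944032) encodes hepcidin. Over 30% mt it was at 683 CPM (662 to 705) at 0 h and 1513 CPM (1479 to 1547) at 48 h, a ratio of 2.21 (2.13 to 2.3). Under 2% mt it was at 502 CPM (497 to 507) and 2872 CPM (2813 to 2932), a ratio of 5.72 (5.59 to 5.86). Hamp was higher at 48 h in both sets, by more in the barcodes with few mt UMIs, and the intervals did not overlap. In macrophage-marker barcodes it was at 251 CPM (216 to 289) and 878 CPM (721 to 1061), a ratio of 3.51 (2.74 to 4.47). Thinned to 500 UMIs, 21.6% of undamaged and 49.9% of PHx48h barcodes over 30% mt held a Hamp UMI, and 22.2% and 72.6% of those under 2% mt. The thinned shares in macrophage-marker barcodes were 11.7% and 31.8%.

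Hamp was spread unevenly over undamaged barcodes. In those over 30% mt its dispersion was 3.75, 38.6% of them held a UMI, and the highest had 136 UMIs per 10000. The 39 barcodes with most Hamp, 1% of the set, held 16.1% of its UMIs. At 48 h the dispersion was 5.81, the median barcode held 12.6 UMIs per 10000 and the highest 73.3. Over 30% mt the highest undamaged barcode thus exceeded the highest PHx48h barcode, while the median undamaged barcode was at 0. Under 2% mt the order was reversed, with a highest value of 48.9 undamaged and 102 at 48 h. Undamaged barcodes were more numerous and shallower, which can raise a highest value per 10000 and makes a median of 0 more likely. Dispersion grows with the UMIs per barcode, and PHx48h barcodes were deeper. In undamaged barcodes under 2% mt the dispersion was 1.04, close to counting error alone. The 5 genes with the highest rho with Hamp in PHx48h barcodes over 30% mt were Ttr (0.35), Apoc1 (0.22), Wfdc21 (0.21), Rpl32 (0.21) and Rps23 (0.20).

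Hamp2 (ENSMUSG00000056978, chromosome 7, 30922372 to 30924681) is the second hepcidin gene of the mouse. Over 30% mt it was lower at 48 h, with 26.0 CPM (22.0 to 30.5) against 12.2 CPM (9.32 to 15.6) and a ratio of 0.468 (0.342 to 0.633). Under 2% mt it was at 12.1 CPM (11.3 to 12.9) and 16.6 CPM (12.4 to 21.7), a ratio of 1.37 (1.02 to 1.82). The sister genes thus had ratios on opposite sides of 1 in the set over 30% mt and on the same side under 2% mt. In macrophage-marker barcodes Hamp2 had 9 UMIs at 0 h, 12.1 CPM, and none at 48 h, where 3 UMIs would be 24.4 CPM, so no fold is given.

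**Figure D2:**
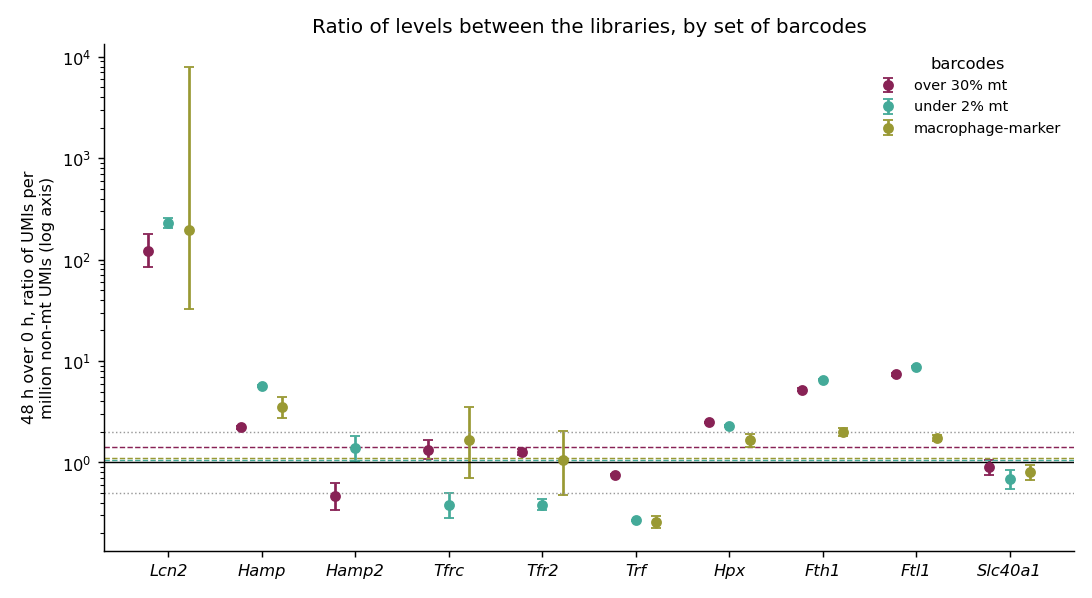
Ratio of the 48 h to the 0 h level (log axis) for each gene in the 3 sets of barcodes, with 95% counting intervals; the solid line is 1, the dotted lines are 2-fold, and each dashed line is the median of all genes in that set. Lcn2 lay above 100 in all 3 sets, and Tfrc and Tfr2 lay above 1 over 30% mt and near 0.38 under 2% mt; Hamp2 in macrophage-marker barcodes is not drawn, since it had no UMI at 48 h.

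Tfrc (ENSMUSG00000022797, chromosome 16, 32608920 to 32632794) encodes transferrin receptor 1, the uptake receptor whose transcript carries the 3′ UTR hairpins shown above. Over 30% mt it was at 29.1 CPM (24.9 to 33.9) and 39.0 CPM (33.8 to 44.8), a ratio of 1.34 (1.09 to 1.66). Under 2% mt it was at 45.2 CPM (43.8 to 46.8) and 17.2 CPM (12.9 to 22.5), a ratio of 0.381 (0.285 to 0.498). Tfr2 (ENSMUSG00000029716, chromosome 5, 137569840 to 137587481), which encodes the second transferrin receptor, a sensor of iron-loaded transferrin on hepatocytes, had the same pattern. Its levels were 236 CPM (224 to 249) and 301 CPM (286 to 316) over 30% mt and 208 CPM (205 to 211) and 79.7 CPM (70.1 to 90.2) under 2% mt, with ratios of 1.27 (1.18 to 1.37) and 0.384 (0.337 to 0.435). Both receptors were slightly higher at 48 h in the first set and more than 2-fold lower in the second, but with TMM scaling, which centres most genes on no change, the log2 ratios over 30% mt turned to -0.14 for Tfrc and -0.21 for Tfr2. In macrophage-marker barcodes the ratios, 1.66 (0.697 to 3.54) for Tfrc and 1.05 (0.477 to 2.07) for Tfr2, rested on 9 and 10 UMIs at 48 h, with intervals that include 1.

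Trf (ENSMUSG00000032554, chromosome 9, 103204001 to 103230444) encodes transferrin, the plasma carrier of iron. It was lower at 48 h in every set, at 18648 and 14168 CPM over 30% mt, 15287 and 4099 CPM under 2% mt, and 7407 and 1920 CPM in macrophage-marker barcodes. The ratios were 0.760 (0.753 to 0.767), 0.268 (0.264 to 0.273) and 0.259 (0.227 to 0.295). Hpx (ENSMUSG00000030895, chromosome 7, 105591613 to 105600137) encodes hemopexin, the plasma carrier of haem. It was higher at 48 h in every set, at 7395 and 18321 CPM, 2808 and 6416 CPM, and 1298 and 2139 CPM, with ratios of 2.48 (2.45 to 2.51), 2.28 (2.25 to 2.32) and 1.65 (1.43 to 1.89). The plasma carriers of iron and of haem therefore had opposite directions, under all 13 alternative settings.

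The carriers had the highest dispersions of the 10 genes in PHx48h barcodes over 30% mt, 17.9 for Hpx and 11.4 for Trf, a measure that is also larger for genes with more UMIs. The 10th percentile, median and 90th percentile of Hpx were 88.5, 174 and 274 UMIs per 10000, and those of Trf 76.1, 139 and 215. The carriers went together between barcodes, with a Spearman rho of 0.74 over 764 barcodes, and of 0.51 over the 3865 undamaged barcodes over 30% mt and 0.49 over the 522 PHx48h barcodes under 2% mt, but of 0.01 over the 52553 undamaged barcodes under 2% mt. Levels within a barcode are shares of the same total, which lowers coefficients between abundant genes.

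Fth1 (ENSMUSG00000024661, chromosome 19, 9980598 to 9985098) and Ftl1 (ENSMUSG00000050708, chromosome 7, 45457944 to 45459884) encode the heavy and light chains of ferritin, the iron store of the cell. Over 30% mt Fth1 was at 623 CPM (602 to 643) at 0 h and 3241 CPM (3192 to 3291) at 48 h, and Ftl1 at 871 CPM (847 to 895) and 6419 CPM (6350 to 6489). Under 2% mt Fth1 was at 1147 and 7499 CPM and Ftl1 at 1919 and 16873 CPM. Both chains were higher at 48 h in both sets, with ratios of 5.21 (5.02 to 5.4) and 6.54 (6.44 to 6.63) for Fth1 and of 7.37 (7.16 to 7.60) and 8.79 (8.71 to 8.88) for Ftl1. In macrophage-marker barcodes, where both were already high at 0 h at 2820 and 4955 CPM, the ratios were 2.00 (1.83 to 2.18) and 1.75 (1.63 to 1.87).

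The ferritin chains went together between PHx48h barcodes over 30% mt, with a rho of 0.48, and against the plasma carriers, with -0.51 and -0.49 for Trf and -0.42 and -0.37 for Hpx. The signs were the same in PHx48h barcodes under 2% mt, where the chains had a rho of 0.53 with each other and of -0.25 to -0.31 with the carriers. At 0 h the coefficients were near 0. The chains had a rho with each other of 0.06 over 30% mt and 0.04 under 2% mt. With the carriers it was -0.07 to -0.12 and -0.01 to -0.05 in the same order. Undamaged barcodes held few ferritin UMIs, with means of 0.929 (Fth1) and 1.30 (Ftl1) over 30% mt and 1.72 and 2.87 under 2% mt. In PHx48h barcodes over 30% mt the means were 21.6 and 42.8. Counting error at so few UMIs brings a rank coefficient towards 0. The values therefore do not show that the relations were absent at 0 h. In PHx48h barcodes under 2% mt the ferritin chains also had a rho of -0.37 and -0.39 with the mt share of the barcode, and Trf and Hpx of 0.37 and 0.39. Whether the mt share has a part in these relations was not tested.

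Slc40a1 (ENSMUSG00000025993, chromosome 1, 45908068 to 45926523) encodes ferroportin, the iron exporter that hepcidin removes. Over 30% mt it was at 52.9 CPM (47.1 to 59.1) and 47.5 CPM (41.7 to 53.8), a ratio of 0.898 (0.755 to 1.07) that did not differ from 1 beyond counting error and turned to a log2 ratio of 0.04 with the limit at 50% mt. Under 2% mt it was at 40.5 CPM (39.1 to 42.0) and 27.7 CPM (22.2 to 34.2), a ratio of 0.685 (0.547 to 0.847). In macrophage-marker barcodes it was at 1464 CPM (1379 to 1554) and 1171 CPM (988 to 1379), a ratio of 0.8 (0.667 to 0.952). Slc40a1 was thus highest in macrophage-marker barcodes in both libraries, and was less than 2-fold apart between the libraries in each set.

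Set against all genes, 5 of the 10 members (Lcn2, Hamp, Hpx, Fth1 and Ftl1) were at least 2-fold higher at 48 h over 30% mt, with 1 CPM added to both levels, where 29.0% of the 6715 genes with a mean of at least 10 CPM passed that limit. Hamp2 alone was at least 2-fold lower, against 5.30% of all genes. Under 2% mt the same 5 were higher, against 25.1% of 5715 genes, and Tfrc, Tfr2 and Trf were lower, against 20.8%. In macrophage-marker barcodes 2 of the 9 members with enough counts (Lcn2 and Hamp) were higher, against 19.0% of 8611 genes, and Trf was lower, against 16.3%. In that set 10 CPM is about 1 UMI of the PHx48h library, so many of all its genes could pass the limit by counting error. The rule that chose the genes used these contrasts, and nothing is read from the counts.

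The median log2 ratio of all genes was 0.52 over 30% mt, 0.09 under 2% mt and 0.14 in macrophage-marker barcodes, and 0.78, 0.81 and 0.72 over the 10, 10 and 9 members tested. TMM scaling moved the medians of all genes to -0.04, -0.28 and -0.12, and the shares of genes at least 2-fold higher and lower to 12.1% and 14.8%, 17% and 29.7%, and 12.7% and 22.7%. Relative to the median of all genes in the set over 30% mt, the log2 ratios were 6.14 for Lcn2, 2.36 for Ftl1, 1.86 for Fth1, 0.79 for Hpx and 0.62 for Hamp. On that scale Tfrc was at -0.11, Tfr2 at -0.17, Slc40a1 at -0.67, Trf at -0.92 and Hamp2 at -1.56. With TMM scaling Hamp and Hpx over 30% mt were still higher at 48 h, by 0.58 and 0.74 on the log2 scale, but no longer 2-fold. Hpx under 2% mt also came below 2-fold with TMM scaling, at a log2 ratio of 0.84, and without the 20 most abundant genes in the total.

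Macrophage-marker barcodes were compared with barcodes over 30% mt of the same library to show where each gene was counted. At 0 h Slc40a1 was 27.7-fold (24.4 to 31.6) higher in macrophage-marker barcodes, Ftl1 5.69-fold (5.45 to 5.94) and Fth1 4.53-fold (4.29 to 4.78), which made 3 of 9 members at least 2-fold higher, against 44.2% of all genes. Hamp, Hamp2, Tfr2, Trf and Hpx were at least 2-fold lower there, 5 of 9 against 7.33%, but with mt UMIs kept in the total Hpx alone of these stayed past 2-fold, at 0.308, while Hamp was at 0.643, Hamp2 at 0.813, Tfr2 at 0.577 and Trf at 0.696. At 48 h Slc40a1 was 24.7-fold (19.9 to 30.5) higher, the sole member past 2-fold against 36.4% of all genes, while Fth1 and Ftl1 were 1.74-fold (1.61 to 1.88) and 1.35-fold (1.27 to 1.44) higher. Lcn2, Tfr2, Trf and Hpx were at least 2-fold lower at 48 h, 4 of 9 against 18.2%, with ratios of 0.403 (0.275 to 0.570) for Lcn2 and 0.117 (0.103 to 0.132) for Hpx. Hamp was at 0.581 (0.476 to 0.702) there, which turned to 1.15 when mt UMIs were kept in the total. Lcn2 and Tfr2 were then no longer 2-fold lower at 48 h, at 0.796 and 0.534.

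After thinning to 500 UMIs, 51.9% (45.7% to 58.1%) of undamaged and 10 of 22 (45.5%, 24.4% to 67.8%) of PHx48h macrophage-marker barcodes held an Slc40a1 UMI, against 2.40% and 1.96% of barcodes over 30% mt. Unthinned, the shares were 90.2% and 100% against 7.32% and 24.2%. Endothelial markers summed to 1663 and 1716 CPM and stromal markers to 1399 and 1830 CPM in the macrophage-marker sets, with all 10 of each list detected. Without barcodes that carried markers of another class, 51 of 264 and 7 of 22, Fth1 and Ftl1 were also at least 2-fold higher at 48 h in macrophage-marker barcodes.

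Hepatocyte transcripts were present in macrophage-marker barcodes too. For 8 of the 10 hepatocyte markers, the level in macrophage-marker barcodes over that in barcodes under 2% mt had a median of 0.510 (range 0.484 to 0.611) at 0 h and 0.383 (0.297 to 0.5) at 48 h. These ranges leave out Hnf4a and Cebpa, which have fewer UMIs. Cebpa was higher in macrophage-marker barcodes, at 96.5 against 81.9 CPM at 0 h and 155 against 76.2 CPM at 48 h. Hnf4a was lower there, at 52.3 against 75.5 CPM and 65.1 against 112 CPM. At 48 h these levels came from 19 Cebpa and 8 Hnf4a UMIs in macrophage-marker barcodes. Among the members the ratio of these sets was 0.499 for Hamp, 0.485 for Trf, 0.462 for Hpx and 0.374 for Tfr2 at 0 h. At 48 h it was 0.306 (0.251 to 0.370) for Hamp, 0.260 (0.177 to 0.368) for Lcn2, 0.468 for Trf and 0.333 for Hpx. Other members lay higher: Tfr2 at 48 h was at 1.02 (0.483 to 1.91), from 10 UMIs in macrophage-marker barcodes. Tfrc was at 0.977 (0.672 to 1.38) at 0 h and 4.25 (1.85 to 8.68) at 48 h, the latter from 9 UMIs. Hamp2 at 0 h was at 0.999 (0.455 to 1.90), also from 9 UMIs. The part of such carried-over transcripts in the Lcn2, Hamp, Trf and Hpx counts of macrophage-marker barcodes was not tested. Slc40a1 stood apart, with ratios of 36.1 (33.7 to 38.7) and 42.2 (32.1 to 55.7), and the ferritin chains went from 2.46 (Fth1) and 2.58 (Ftl1) at 0 h to 0.752 and 0.514 at 48 h.

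**Figure D3:**
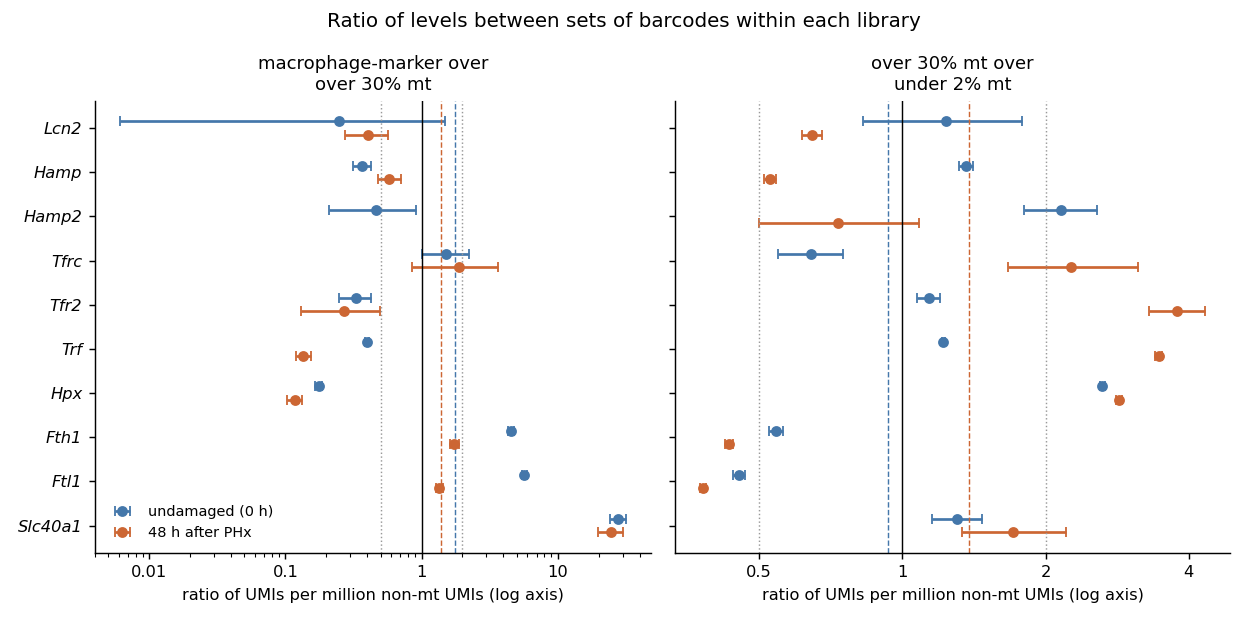
Ratio of levels between sets of barcodes of the same library (log axes), macrophage-marker over those over 30% mt at left and over 30% mt over under 2% mt at right, with 95% counting intervals; solid lines are 1, dotted lines 2-fold, and dashed lines the medians of all genes per library. Slc40a1 lay at 27.7 and 24.7 at left in the undamaged and PHx48h libraries, and Tfr2 and Trf moved at right from near 1 at 0 h to above 3 at 48 h; Hamp2 at 48 h is not drawn at left.

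The mt sets differed from each other within each library. At 0 h Hpx (2.63-fold, 2.61 to 2.66) and Hamp2 (2.15-fold, 1.80 to 2.56) were at least 2-fold higher over 30% mt than under 2% mt, 2 of 9 members against 10.8% of all genes, and Ftl1 was lower at 0.454 (0.441 to 0.467), 1 of 9 against 10.0%. At 48 h Tfrc, Tfr2, Trf and Hpx were at least 2-fold higher over 30% mt, 4 of 10 against 29.1%, with ratios from 2.27 to 3.77, and Fth1 and Ftl1 were lower at 0.432 and 0.380, 2 of 10 against 7.14%. Lcn2 and Hamp were also lower over 30% mt at 48 h, at 0.645 (0.614 to 0.677) and 0.527 (0.511 to 0.543). These ratios depend on leaving mt UMIs out of the total: with them, the 4 genes higher at 48 h had ratios from 1.04 to 1.73. At 0 h Hamp, Tfr2, Trf, Lcn2 and Slc40a1, which were 1.14-fold to 1.36-fold higher over 30% mt, then turned to ratios from 0.623 to 0.746, and Slc40a1 at 48 h turned from 1.71 to 0.782. The median mt share was 48.2% and 57.1% over 30% mt and 0.529% and 0.463% under 2% mt.

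In the undamaged barcodes under 2% mt, dispersions of the 10 genes ran from 1.03 for Tfr2 to 1.30 for Ftl1, so at this depth the 52553 barcodes differed little beyond counting error in these genes. The same genes reached 3.75 for Hamp, 3.19 for Hpx and 2.62 for Trf in undamaged barcodes over 30% mt. Near the limits of the sets, in PHx48h barcodes with 25% to 30% mt, Lcn2 was at 708 CPM, Ftl1 at 9842 CPM and Trf at 10102 CPM (27 barcodes), and with 30% to 35% mt at 619, 7565 and 11965 CPM (25 barcodes). With 1.5% to 2% mt Lcn2 was at 960, Ftl1 at 12858 and Trf at 4566 CPM (25 barcodes), and with 2% to 2.5% mt at 832, 12206 and 4503 CPM (18 barcodes).

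**Figure D4:**
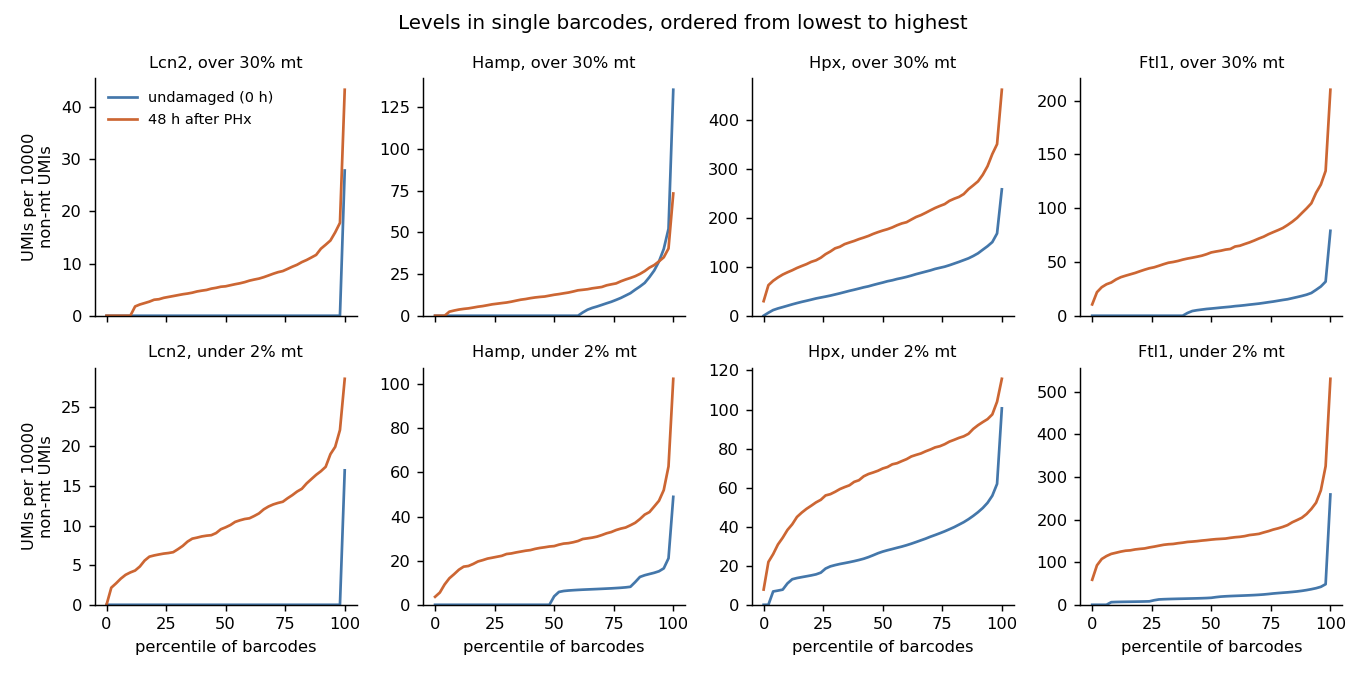
UMIs of Lcn2, Hamp, Hpx and Ftl1 per 10000 non-mt UMIs in single barcodes, ordered by percentile, for barcodes over 30% mt (top) and under 2% mt (bottom), blue undamaged and orange PHx48h. Lcn2 was at 0 in nearly all undamaged barcodes and had a median of 5.63 at 48 h over 30% mt. The highest undamaged Hamp barcode lay above the highest PHx48h barcode over 30% mt (136 and 73.3) and below it under 2% mt (48.9 and 102).

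Liver lobules run from the portal vein to the central vein, and hepatocytes along this axis express different genes. Barcodes over 30% mt without markers of another class were ordered by UMIs of 10 periportal markers as a share of these and 10 perivenous markers, and cut into 3 equal parts in each library (3851 and 763 barcodes). None of the 10 genes was among these markers, and the rule that chose them did not use zonation. At 0 h Hamp was at 927 CPM (882 to 975) at the perivenous end, 776 in the middle and 376 (349 to 404) at the periportal end, a ratio of ends of 2.47 (2.26 to 2.70). Hamp2 had the same order, 41.9, 25.4 and 13.3 CPM, with a ratio of 3.15 (1.98 to 5.15). At 48 h the ratio for Hamp was 1.34 (1.27 to 1.42), from 1695, 1739 and 1263 CPM, and for Hamp2 0.889 (0.421 to 1.78), from 10.4, 14.2 and 11.7 CPM.

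The plasma carriers ran the other way. Hpx was at 3739, 8106 and 9764 CPM from the perivenous to the periportal end at 0 h and at 11516, 19039 and 21533 CPM at 48 h, with periportal over perivenous ratios of 2.61 (2.54 to 2.69) and 1.87 (1.84 to 1.91). Trf was at 13975, 19501 and 21782 CPM and at 10405, 14218 and 16180 CPM, with ratios of 1.56 (1.53 to 1.58) and 1.56 (1.52 to 1.59). The ferritin chains were higher at the perivenous end in both libraries, by 1.42-fold and 1.36-fold for Fth1 and 1.32-fold and 1.38-fold for Ftl1. At 48 h Lcn2 was at 604, 571 and 719 CPM from the perivenous to the periportal end, with a ratio of 1.19 (1.09 to 1.30), and Tfrc at 25.7, 38.0 and 47.0 CPM, with a ratio of 1.83 (1.22 to 2.80). Tfr2 had ratios of 1.13 (0.980 to 1.30) and 1.19 (1.04 to 1.36). For Lcn2 and Tfrc at 0 h and Slc40a1 in both libraries the interval of the ratio of ends included 1.

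Some measures moved with the order. At 48 h median non-mt UMIs were 3572, 4339 and 6678 from the perivenous to the periportal end, and median mt shares 57.9%, 58.4% and 55.9%. At 0 h the depths were 1154, 1331 and 1165 and the mt shares 47.9%, 47.2% and 49.3%. Their part in the levels was not tested. The parts met at scores of 0.294 and 0.643 at 0 h and of 0.581 and 0.831 at 48 h, so parts of the same name are not the same place in the lobule, and 282 and 103 barcodes lay within 0.02 of a limit. The summed perivenous markers were at 8116 and 3405 CPM and the periportal markers at 5031 and 7793 CPM over 30% mt, at 0 h and 48 h.

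**Figure D5:**
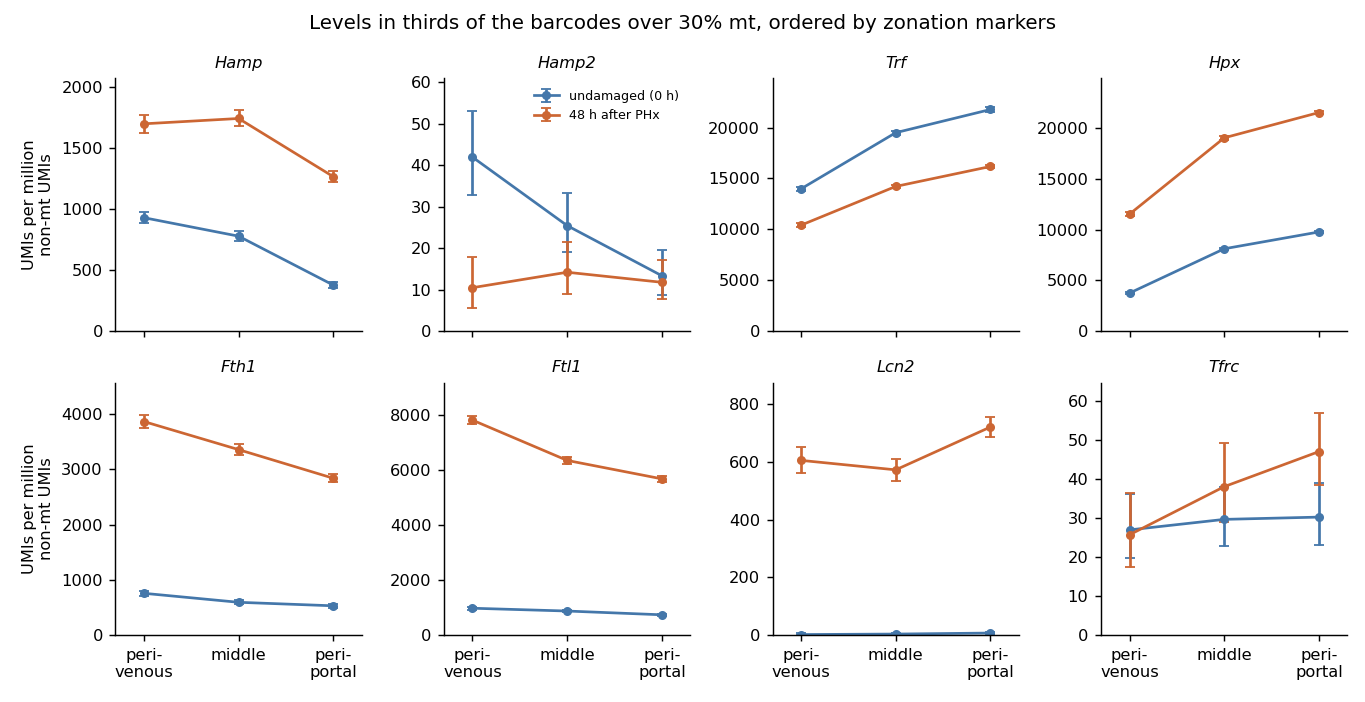
Level of 8 genes in UMIs per 1000000 non-mt UMIs (CPM) in barcodes over 30% mt, cut into 3 equal parts by periportal and perivenous markers within each library, with 95% Poisson intervals; blue is undamaged and orange PHx48h. At 0 h Hamp was at 927 CPM at the perivenous and 376 CPM at the periportal end, and Hpx at 3739 and 9764 CPM.

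Of 58 further genes listed for iron handling, 55 were in the tables and 38 had a mean of at least 10 CPM over 30% mt, where 9 were at least 2-fold higher at 48 h and 3 lower, against 29.0% and 5.30% of all genes. Their median log2 ratio was 0.38, against 0.52 for all genes. The list was drawn up with the members' values known, and the counts describe it. Among 13 regulators of hepcidin with enough counts, Id1, a target gene of BMP signalling, went from 0.867 CPM (5 UMIs) to 40.6 CPM (207 UMIs), a ratio of 46.8 (19.8 to 146), and Smad1 and Smad4, the receptor-activated and common SMAD proteins, had ratios of 2.22 (1.55 to 3.21) and 2.12 (1.51 to 3.0). Tmprss6, whose protease lowers hepcidin by cutting the BMP coreceptor hemojuvelin, was lower, at 861 and 351 CPM with a ratio of 0.408 (0.386 to 0.430). Acvr1, a BMP receptor, was lower at 0.429 (0.278 to 0.648). The ratios of Smad1 and Smad4 under 2% mt were 1.17 (0.844 to 1.59) and 1.2 (0.832 to 1.69), with intervals that include 1. There 1 of 12 regulators tested was at least 2-fold higher and 6 were lower, against 25.1% and 20.8% of all genes. In macrophage-marker barcodes Smad4 was lower, at 0.467 (0.0537 to 1.87) from 2 UMIs at 48 h, and Smad1 was within 2-fold.

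Of the genes of haem and iron-sulfur synthesis, 3 of 7 were at least 2-fold higher over 30% mt and none lower, against 29.0% and 5.30% of all genes. These shares also stand beside the counts over 30% mt for the other roles below, and nothing is read from counts of so few genes. Alas1, the rate-limiting enzyme of haem synthesis in liver, went from 114 to 440 CPM, a ratio of 3.87 (3.55 to 4.23). Iscu, the scaffold on which iron-sulfur clusters are built, had a ratio of 2.29 (1.97 to 2.67). Of the 6 genes of haem scavenging and breakdown tested, the haem oxygenase gene Hmox2 (2.19, 1.69 to 2.85) and the biliverdin reductase gene Blvrb (2.65, 2.33 to 3.02) were higher. Steap3, an iron reductase of endosomes, was lower at 0.439 (0.312 to 0.609), the only 1 of 5 uptake genes past 2-fold. Bdh2, an enzyme linked to the mammalian siderophore that lipocalin 2 carries, had a ratio of 2.91 (2.02 to 4.26), from 42 and 108 UMIs. None of the 5 genes of iron sensing and ferritin turnover, nor Cp, the ferroxidase ceruloplasmin, was 2-fold apart over 30% mt. In the other sets Cp was lower at 48 h, at 0.345 (0.324 to 0.366) under 2% mt and 0.385 (0.253 to 0.564) in macrophage-marker barcodes. Of the sensing genes, 0 of 4 were 2-fold apart under 2% mt, and 2 of 6 were higher in macrophage-marker barcodes, against 19.0% of all genes.

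The same list gave 6 genes higher and 13 lower of 36 under 2% mt, against 25.1% and 20.8% of all genes, and 8 and 8 of 45 in macrophage-marker barcodes, against 19.0% and 16.3%. Id1 and Alas1 were among the genes at least 2-fold higher and Tmprss6 among those at least 2-fold lower in all 3 sets. Id1 had a ratio of 32.0 (25.1 to 40.9) under 2% mt, where it went from 1.56 to 50.1 CPM, and of 2.31 (0.886 to 5.44) in macrophage-marker barcodes. Tmprss6 had ratios of 0.120 (0.104 to 0.138) and 0.156 (0.0419 to 0.407) in those sets, the latter from 4 UMIs at 48 h. Alas1 had ratios of 6.45 (6.05 to 6.86) and 3.54 (1.96 to 6.23).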

How the data were processed

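Raw UMI counts per gene and barcode, whole numbers without normalization, were deposited, and the submitters' processing notes name Cell Ranger and the mm10 build. The Cell Ranger version and annotation are not given in the sources used here. The members, the gene lists and the tests were chosen with earlier results of these data known. UMIs of 13 mt genes were left out of totals. A macrophage-marker barcode had UMIs of at least 4 of 10 markers that summed to at least 0.5% of its non-mt UMIs, and was taken out of the mt sets. UMIs were summed per set. Intervals were exact Poisson for levels, exact conditional binomial for ratios and exact Clopper-Pearson for shares. With 1 library per group no test was made. Per the methods of the authors, barcodes with high mt content and possible doublets were left out downstream, at limits not stated, and the tables still hold barcodes of high mt content. No doublet caller was run here, and alternatives left out the deepest 5% of barcodes or those with markers of another class. Named genes were all members, listed iron genes at least 2-fold apart over 30% mt with a mean of at least 10 CPM, and the 5 genes with the highest rho with Lcn2 and Hamp. A result that the rule would name is not reported here. Python 3.11.15 with scipy 1.17.1 and edgeR 4.0.16 (TMM factors only) were used, and the scripts were tested on simulated data. Gene positions came from GENCODE M21, with all 10 members matched by identifier.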

Additional observations from a re-analysis of the deposited data

Results flagged for a closer look

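For 3 members the ratio of 48 h to 0 h lay on opposite sides of 1 in barcodes over 30% mt and under 2% mt. The log2 ratio over 30% mt minus that under 2% mt was -1.46 for Hamp2, 1.75 for Tfrc and 1.72 for Tfr2. With 1 library per group the differences were not tested. With TMM scaling the log2 ratios of Tfrc and Tfr2 were below 0 in both sets, and those of Hamp2 kept opposite signs at -1.57 and 0.10.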

How the results depend on the processing

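The 13 alternatives left the direction of the 48 h to 0 h ratio the same for 7 of 10 members over 30% mt (all but Tfrc, Tfr2 and Slc40a1), all 10 under 2% mt, and 9 of 10 in macrophage-marker barcodes (all but Tfr2, -0.20 with TMM scaling). Over 30% mt the members at least 2-fold higher went from 5 to 3 with TMM scaling, and those lower from 1 to 0 with mt UMIs in the total, with 10 CPM added or with the limit at 20% mt. The share of all genes higher went from 29.0% to 12.1% with TMM scaling. The share lower went from 5.30% to 10.0%, 3.86% and 5.34% with the other settings, in that order. Hamp alone left those higher with mt UMIs in the total, without the 20 most abundant genes or with the limit at 50% mt. The shares of all genes higher were then 20.6%, 20.5% and 28.8% in that order. In macrophage-marker barcodes those lower went from 1 to 2 with no filter on low values, and those higher from 2 to 4 without barcodes with markers of another class. Of all genes, the share lower went from 16.3% to 32.5% and the share higher from 19.0% to 19.7% with these settings. Fth1 alone joined those higher there with the mean of single-barcode CPM or with macrophage markers at 0.25%, where 21.2% and 19.7% of all genes were higher. Members higher in PHx48h macrophage-marker barcodes than over 30% mt went from 1 to 2 with TMM scaling, the mean of single-barcode CPM or macrophage markers at 1%, to 4 with mt UMIs in the total and to 3 without barcodes of another class. Members higher over 30% mt than under 2% mt went from 2 to 0 at 0 h and from 4 to 0 at 48 h with mt UMIs in the total, and from 2 to 1 at 0 h with 10 CPM added. With mt UMIs in the total, 4 of the 5 members lower in undamaged macrophage-marker barcodes than over 30% mt, and Lcn2 and Tfr2 of the 4 at 48 h, came within 2-fold. For the comparisons between sets within a library, the shares of all genes under these settings are not set beside the counts. Nothing is therefore read from those counts. Cutting the barcodes into 2 parts in place of 3 moved 7 of 20 zonation ratios beyond counting error, all towards 1, among them Hamp at 0 h from -1.30 to -1.05 and Hpx from 1.38 to 0.95 on the log2 scale, and turned Hamp2 at 48 h from 0.16 to -0.01. With 2 parts each end also takes in barcodes of the middle part, so the ratio of ends is not the same measure as with 3. How much of the shifts this makes up was not tested. Leaving out the 20 most abundant genes gave 18.7% of all genes higher and 26.3% lower under 2% mt. No paired analysis was possible because each group held 1 library, and for the same reason no replicate could be left out. Depth limits Lcn2 at 0 h, Hamp2 and all values of the 22 PHx48h macrophage-marker barcodes.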
